A study of Mus musculus with 8 samples.

Results

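The genes described are 4 BMP ligands (Bmp2, Bmp4, Bmp5 and Bmp7), the 4 Id genes (Id1, Id2, Id3 and Id4) and the 2 inhibitory Smads (Smad6 and Smad7) of the mouse. They were taken by symbol from the deposited gene tables, in which these 10 were among 24306 symbols, each with 1 entry and 1 start site. The study sequenced poly(A) RNA at 2 stages of the mouse line E14, as embryonic stem cells (ESC) and after their differentiation to neural progenitors (NPC). At each stage it compared wild-type cells with a Wdr68 knockout, with 2 libraries in each of the 4 groups. The series ties WDR68, a protein with WD40 repeats, to the PRC1-AUTS2 Polycomb complex, and the gene appears in the tables as Dcaf7.

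Both genotypes of ESC were grown in 15% fetal bovine serum with LIF and with inhibitors of Mek and GSK3, on mouse embryonic fibroblast feeders or on gelatin. For NPC of both genotypes, cells were first passaged on gelatin for 2 passages. Hanging drops of 500 cells were then kept for 2 days, the bodies were held in suspension for 2 more days, and retinoic acid was added for the last 4 days, in serum without LIF or the inhibitors. The labels do not say how the knockout was made, whether it is 1 clone, or whether the 2 libraries of a group came from separate cultures. The spread behind each p-value of a change is that between libraries of the same group, and it may be technical. In the main fit it was pooled over the 4 groups and moderated across genes, so ESC libraries also bear on NPC tests.

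BMPs are secreted dimers of the TGF-beta family. They bind a pair of type I and type II receptor kinases, which phosphorylate Smad1, Smad5 and Smad9. These join Smad4 and enter the nucleus, where Id genes and the genes of the inhibitory Smads are among the direct targets. Id proteins carry a helix-loop-helix domain but no DNA-binding region, so they hold E proteins away from DNA and restrain neuronal differentiation. Smad6 and Smad7 feed back on the receptors, Smad6 mainly on BMP signals and Smad7 on BMP, activin and TGF-beta signals. In mouse ESC, BMP4 acts with LIF to keep the cells undifferentiated. In the embryo, BMPs from the roof plate pattern the dorsal neural tube, and BMP4 is needed for mesoderm and blood.

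The promoters of Id2, Id3 and Id4 are shown: Id2 had the largest rise with differentiation, Id3 was higher in knockout NPC and Id4 lower. Sequence was taken from RefSeq on GRCm38.p6, as the 250 bases before the start of the gene, and 6 of the 10 genes had an entry (Bmp4, Bmp5, Id2, Id3, Id4 and Smad6). Capitals mark a GC-rich element that Smads can bind (GGCGCC, its own reverse complement) or the Smad box (CAGAC, or GTCTG on the other strand), which do not overlap. The Id2 promoter is chr12:25096093-25096342 on the minus strand, that of Id3 chr4:136143572-136143821 on the plus strand, and that of Id4 chr13:48260866-48261115 on the plus strand.
Id2: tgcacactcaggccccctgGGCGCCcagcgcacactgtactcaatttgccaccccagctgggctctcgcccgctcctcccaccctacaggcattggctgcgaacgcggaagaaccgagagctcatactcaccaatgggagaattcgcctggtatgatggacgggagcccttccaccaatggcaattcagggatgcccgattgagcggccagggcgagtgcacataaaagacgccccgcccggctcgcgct
Id3: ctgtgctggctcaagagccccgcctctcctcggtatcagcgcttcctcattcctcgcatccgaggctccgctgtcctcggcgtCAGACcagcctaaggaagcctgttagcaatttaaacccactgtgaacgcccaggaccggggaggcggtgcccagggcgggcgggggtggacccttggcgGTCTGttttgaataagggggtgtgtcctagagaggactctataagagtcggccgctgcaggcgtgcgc
Id4: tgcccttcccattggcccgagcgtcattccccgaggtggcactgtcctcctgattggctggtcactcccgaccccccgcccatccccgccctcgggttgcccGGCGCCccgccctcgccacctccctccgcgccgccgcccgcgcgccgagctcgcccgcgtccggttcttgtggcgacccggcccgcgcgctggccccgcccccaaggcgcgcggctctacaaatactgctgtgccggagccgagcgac
The Id2 window held 1 GGCGCC, 231 to 226 bases before the start, and the Id4 window 1, 148 to 143 bases before it. The Id3 window held a CAGAC at 167 to 163 and a GTCTG at 68 to 64 bases before the start. Among all 32851 promoters of this length, 9.59% held GGCGCC and 42.2% held a Smad box on either strand. A Smad box stood once in the Bmp5 window, and neither motif was in the Bmp4 or Smad6 window. GC content was 62.8% for Id2, 62.8% for Id3 and 75.6% for Id4, against a median of 52.4% over all promoters. The GENCODE vM21 annotation of the same build has the same strands, but its nearest start lies 42 bases further downstream for Id3 and 112 for Id4, so motif positions in these windows depend on the start used. A motif match is a match of letters and was not tested for binding.

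Levels are given in FPKM, fragments per kilobase of a transcript, scaled by the number of mapped fragments. The deposited intervals imply 5996677 to 7942644 fragments for a library, and 10870 to 12209 genes reached an FPKM of 1. The targeted gene, Dcaf7, was at 12.4 and 14.2 in wild-type but 2.80 and 2.26 in knockout ESC. It was at 27.2 and 29.6 in wild-type and 8.36 and 8.99 in knockout NPC, so the groups stood apart as labelled at both stages, with RNA remaining in the knockout. Pluripotency markers (8 genes, among them Pou5f1 and Nanog) summed to 3645 to 4219 FPKM in ESC and 7.43 to 14.9 in NPC. Neural progenitor markers (8 genes, among them Sox1, Nes and Pax6) summed to 217.4 and 217.6 in wild-type NPC but to 33.5 and 33.6 in knockout NPC. In ESC they summed to 82.1 to 98.9, most of it Sox2, which pluripotent cells also express (77.5 to 92.9). Without Sox2 the sums were 4.20 to 5.95 in ESC, 187 to 188 in wild-type NPC and 31.0 to 32.5 in knockout NPC. Most of the knockout NPC sum was Nes, at 25.4 and 22.4, which was at 29.8 and 30.2 in wild-type NPC. Knockout NPC were thus low in most of the markers of their label beside wild-type NPC, and the label is used here only as a name.

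Changes were tested with limma on log2(FPKM + 1) over the 13318 genes that reached an FPKM of 1 in 2 or more libraries. Changes are on that scale, which understates the change of low genes, with the standard error (SE) after ±, and a gene was called when its Benjamini-Hochberg adjusted p was under 0.05. All 10 genes passed the filter, but Bmp2, Bmp5 and Smad6 passed through NPC libraries only. In bulk RNA, fewer cells of a type and less RNA per cell cannot be told apart. Group means below are ± SD with n = 2.

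**Figure D1:**
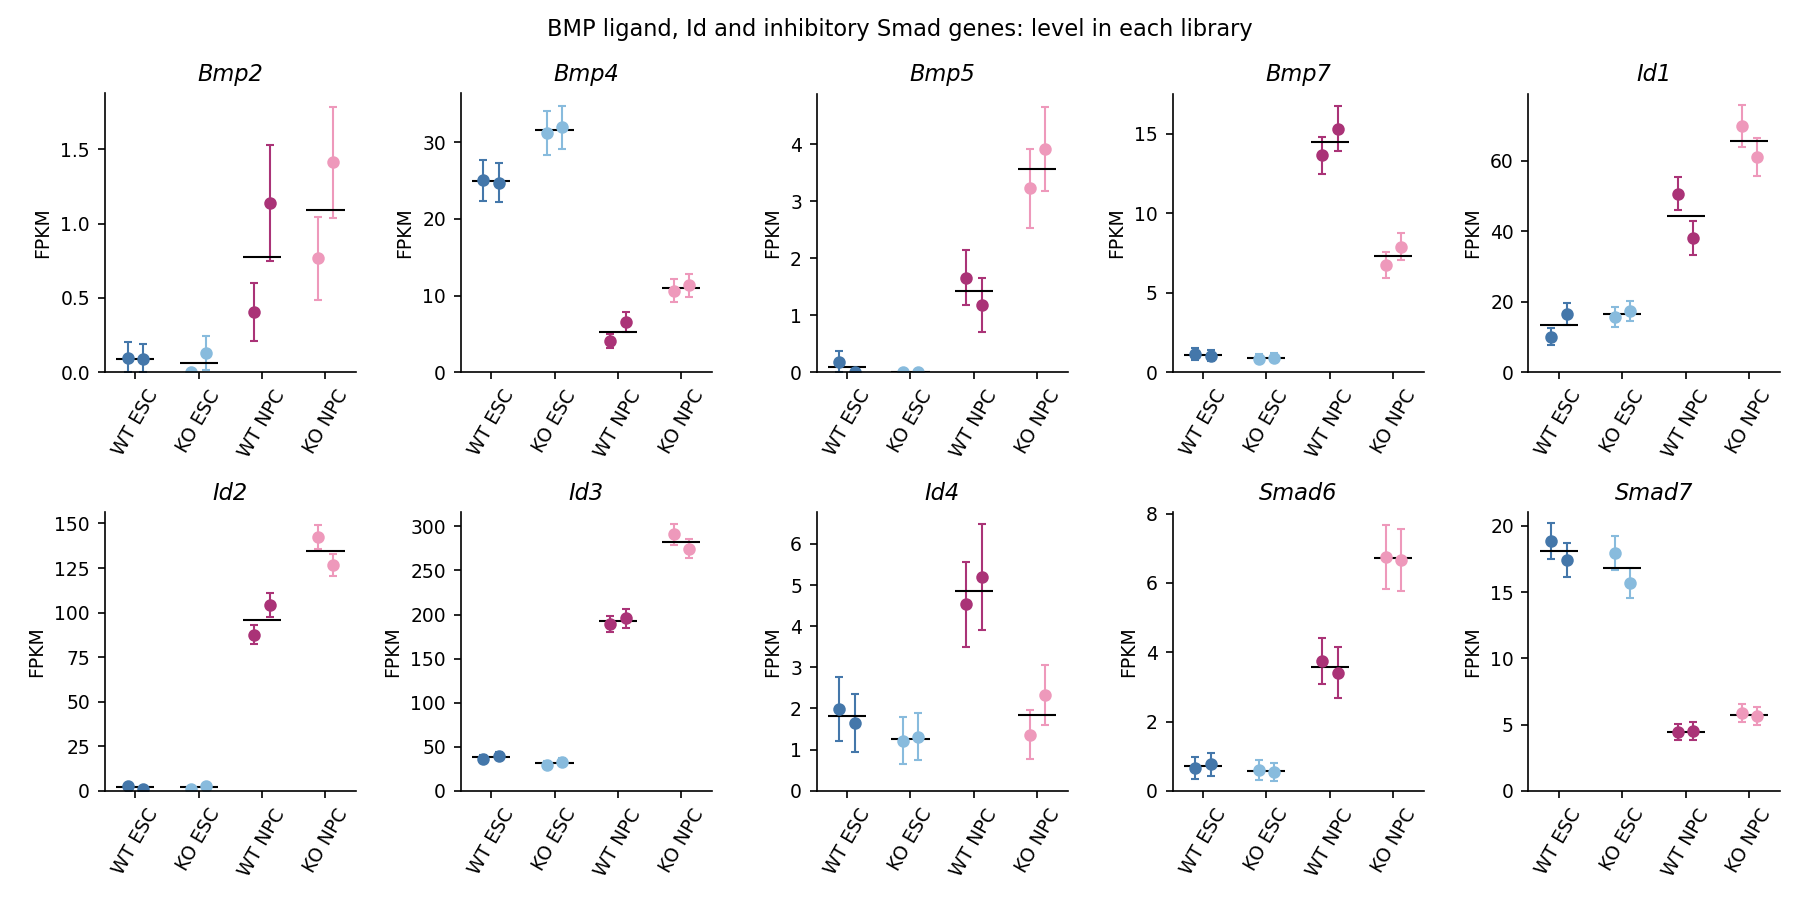
FPKM (linear axes from 0, a separate scale for each gene) of the 10 genes in each library; points are libraries, vertical bars the 95% interval that Cufflinks deposited, and black lines group means. Id3 reached 291 and 275 in knockout NPC against 189 and 196 in wild-type NPC, while Bmp7 and Id4 were lower in knockout than in wild-type NPC.

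Among the ligands, Bmp4, the family member best known in ESC culture and in mesoderm, was the most abundant in ESC. Its FPKM was 25.0 and 24.7 in wild-type ESC against 31.1 and 31.9 in knockout ESC, 4.04 and 6.56 in wild-type NPC, and 10.6 and 11.3 in knockout NPC. Every group was apart from every other, with both ESC groups above both NPC groups and knockout above wild type at each stage. The fall from ESC to NPC was by 2.07 ± 0.17 on the log2 scale in wild type (adjusted p = 3.2e-05) and by 1.44 ± 0.17 in knockout (adjusted p = 0.00022), or 4.69 and 2.87 times in mean FPKM. In NPC the knockout mean of 11.0 ± 0.509 was 2.07 times the wild-type mean of 5.30 ± 1.78 (change 0.96 ± 0.17, adjusted p = 0.0066). In ESC the change of 0.33 ± 0.17 was not called (adjusted p = 0.48). A predicted gene, Gm15217, overlaps Bmp4 in the tables, and it reached at most 0.682 FPKM in any library.

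Bmp7, a ligand of kidney, eye and dorsal neural tissue, ran the other way. Its FPKM was 1.17 and 1.04 in wild-type ESC against 0.859 and 0.929 in knockout ESC, 13.6 and 15.3 in wild-type NPC, and 6.73 and 7.90 in knockout NPC. It was thus a low transcript in ESC and highest in wild-type NPC, and no groups overlapped. It rose with differentiation by 2.87 ± 0.12 in wild type (adjusted p = 1.6e-06) and by 2.13 ± 0.12 in knockout (adjusted p = 6.5e-06), which is 13.1 and 8.19 times in mean FPKM. Wild-type NPC held 1.98 times the Bmp7 of knockout NPC (change -0.90 ± 0.12, adjusted p = 0.0022).

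Bmp5, a ligand of skeletal and dorsal midline tissue, was at or close to 0 in ESC. It was listed at 0.184 and 0 in wild-type ESC and at 0 in both knockout ESC libraries, then at 1.66 and 1.18 in wild-type NPC and 3.22 and 3.92 in knockout NPC. The NPC groups were apart, with the knockout 2.51 times the wild-type mean (change 0.92 ± 0.15, adjusted p = 0.0050). With a pseudocount of 0.1 the change was 1.28 and no longer called (adjusted p = 0.11). It rose with differentiation by 1.15 ± 0.15 in wild type (adjusted p = 0.00039) and 2.19 ± 0.15 in knockout (adjusted p = 1.6e-05).

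Bmp2, a ligand of heart, bone and extraembryonic tissue, was the lowest in NPC. It was at 0.0953 and 0.0897 in wild-type ESC against 0 and 0.129 in knockout ESC, 0.406 and 1.14 in wild-type NPC, and 0.768 and 1.41 in knockout NPC. The genotypes overlapped at both stages, and no more than 57 implied fragments stood behind any value. The rise with differentiation was 0.67 ± 0.23 in wild type (adjusted p = 0.032) and 0.96 ± 0.23 in knockout (adjusted p = 0.0072). The wild-type rise was no longer called without filtering (adjusted p = 0.052), after quantile normalization (0.16, adjusted p = 0.55), without wild-type ESC library 1 (adjusted p = 0.094) or without library 2 (adjusted p = 0.097).

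The summed level of the 4 ligands overlapped between the NPC genotypes, while the shares of Bmp4, Bmp5 and Bmp7 in it did not. Their summed FPKM was 26.5 and 25.9 in wild-type ESC against 32.0 and 33.0 in knockout ESC, 19.7 and 24.2 in wild-type NPC, and 21.3 and 24.6 in knockout NPC. Bmp4 made up 94.5% and 95.6% of this sum in wild-type ESC, and 97.3% and 96.8% in knockout ESC. In wild-type NPC Bmp7 led, with 69.0% and 63.3% of the sum against 20.5% and 27.1% for Bmp4. In knockout NPC Bmp4 led, with 49.8% and 46.2% against 31.5% and 32.1% for Bmp7, and Bmp5 was at 15.1% and 15.9%, beside 8.41% and 4.88% in wild-type NPC. The ratio of Bmp7 to Bmp4 was 3.37 and 2.33 in wild-type and 0.633 and 0.696 in knockout NPC, so it lay above 1 in one genotype and below 1 in the other. With 2 libraries against 2, the exact two-sided permutation test of this ratio gave p = 0.33, the smallest it can give.

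**Figure D2:**
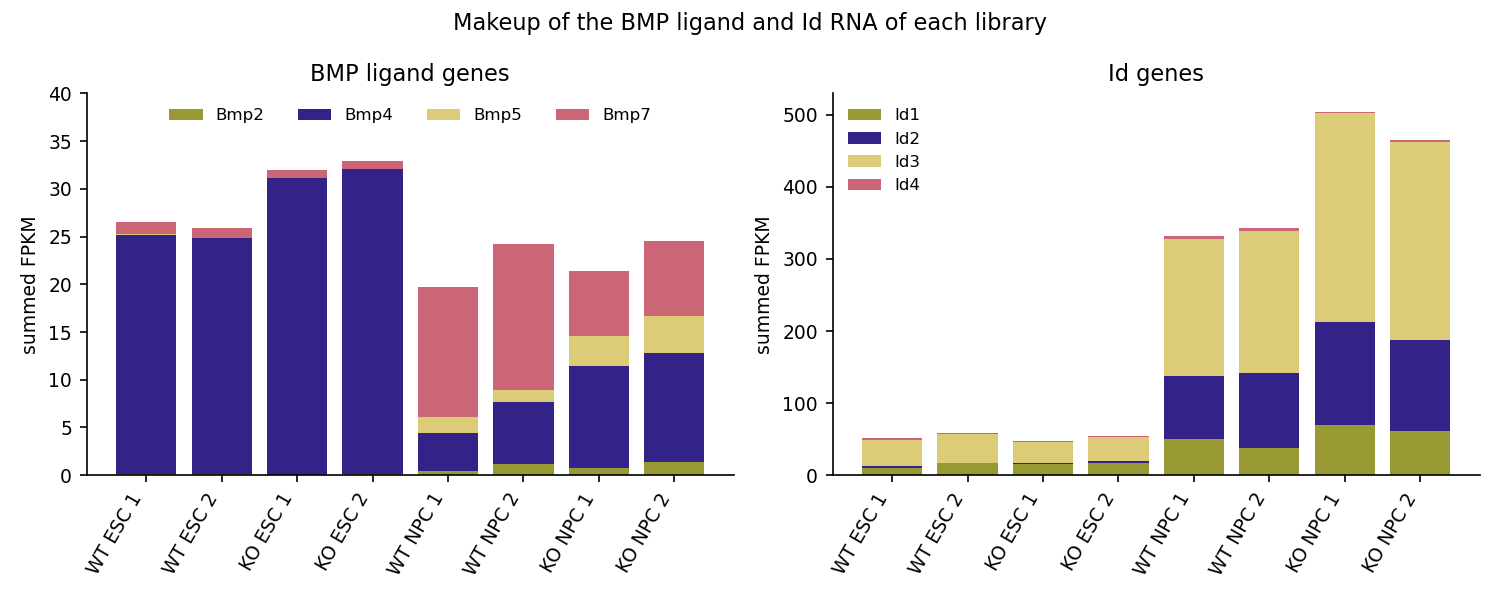
Summed FPKM (linear axes from 0) of the 4 ligand genes and of the 4 Id genes in each library, stacked by gene. The ligand sums lie between 19.7 and 33.0 in all libraries, with Bmp4 nearly the whole of it in ESC and Bmp7 the largest share in wild-type NPC only, while the Id sums rise from 47.5 to 59.1 in ESC to 332 to 504 in NPC.

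The Id genes, the common readout of BMP signals, carried much more RNA in NPC than in ESC. Their summed FPKM was 51.0 and 59.1 in wild-type ESC and 47.5 and 54.4 in knockout ESC, where the genotypes overlapped. It was 332 and 343 in wild-type NPC and 504 and 465 in knockout NPC, where they did not. Id3 took the largest share in every library, from 57.0% to 71.0%.

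Id3 was at 36.2 and 39.9 FPKM in wild-type ESC against 29.4 and 33.1 in knockout ESC, 189 and 196 in wild-type NPC, and 291 and 275 in knockout NPC. Knockout lay below wild type in ESC and above it in NPC, with no overlap at either stage. The NPC change was 0.55 ± 0.08 (adjusted p = 0.0028), from a mean of 193 ± 4.76 to 283 ± 11.5 or 1.47 times. The ESC change of -0.28 ± 0.08 was not called (adjusted p = 0.26). Differentiation raised Id3 by 2.31 ± 0.08 in wild type (adjusted p = 7.4e-07) and 3.14 ± 0.08 in knockout (adjusted p = 2.7e-07).

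Id1, an Id gene of ESC, endothelium and many progenitors, was at 10.1 and 16.5 in wild-type ESC against 15.7 and 17.4 in knockout ESC, 50.7 and 38.0 in wild-type NPC, and 69.8 and 61.0 in knockout NPC. The ESC genotypes overlapped, and the NPC genotypes did not. The NPC mean was 1.48 times higher in knockout, a ratio like that of Id3, but the libraries of a group differed more and the change of 0.56 ± 0.22 was not called (adjusted p = 0.11). It was called when only the NPC groups were fitted (adjusted p = 0.047) and when either wild-type ESC library was left out (adjusted p = 0.039 for each). The rise with differentiation was 1.69 ± 0.22 in wild type (adjusted p = 0.00036) and 1.92 ± 0.22 in knockout (adjusted p = 0.00020).

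Id2, an Id gene of neural and blood lineages, had the largest rise of the 10. It was at 2.70 and 1.04 in wild-type ESC against 1.22 and 2.53 in knockout ESC, 87.6 and 104 in wild-type NPC, and 142 and 127 in knockout NPC. The ratio of NPC to ESC means was 51.4 in wild type (change 5.14 ± 0.31, adjusted p = 6.6e-06) and 71.8 in knockout (5.60 ± 0.31, adjusted p = 4.9e-06). In NPC the genotypes did not overlap, with 1.40 times more in knockout, and the change of 0.49 ± 0.31 was not called (adjusted p = 0.30). A fit of only the NPC groups, which leaves out the spread of the ESC libraries, called it (adjusted p = 0.028).

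Id4, the Id gene most tied to neural progenitors, stood apart from the other 3. It was at 1.98 and 1.66 in wild-type ESC against 1.21 and 1.31 in knockout ESC, 4.53 and 5.20 in wild-type NPC, and 1.36 and 2.32 in knockout NPC. Wild-type NPC held 2.64 times the level of knockout NPC (change -1.06 ± 0.18, adjusted p = 0.0051), and knockout NPC overlapped wild-type ESC. Id4 rose with differentiation by 1.06 ± 0.18 in wild type (adjusted p = 0.0013). In knockout its change of 0.31 ± 0.18 was not called (adjusted p = 0.17), although without knockout NPC library 1 it was 0.55 and called (adjusted p = 0.024). Its share of the Id sum was 1.36% and 1.51% in wild-type NPC and 0.269% and 0.500% in knockout NPC.

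Smad6, the feedback inhibitor that acts mainly on BMP receptors, rose in both genotypes and further in the knockout. It was at 0.656 and 0.763 in wild-type ESC against 0.605 and 0.534 in knockout ESC, 3.75 and 3.41 in wild-type NPC, and 6.75 and 6.66 in knockout NPC. As for Id3, knockout lay below wild type in ESC and above it in NPC, with no overlap. The NPC change was 0.75 ± 0.11 (adjusted p = 0.0030), or 1.87 times. The ESC change of -0.12 ± 0.11 was not called (adjusted p = 0.70), and no more than 21 implied fragments stood behind any ESC value. Differentiation raised it by 1.42 ± 0.11 in wild type (adjusted p = 2.5e-05) and by 2.30 ± 0.11 in knockout (adjusted p = 3.0e-06).

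Smad7, the broader inhibitor, fell where Smad6 rose. It was at 18.8 and 17.4 in wild-type ESC against 18.0 and 15.7 in knockout ESC, 4.42 and 4.53 in wild-type NPC, and 5.87 and 5.64 in knockout NPC. It fell by 1.80 ± 0.10 on the log2 scale in wild type (adjusted p = 4.4e-06) and by 1.40 ± 0.10 in knockout (adjusted p = 1.6e-05). The NPC genotypes did not overlap, but the change of 0.30 ± 0.10 (1.29 times) was not called (adjusted p = 0.062), except after quantile normalization (0.36, adjusted p = 0.037). The ratio of Smad6 to Smad7 was 0.0348 and 0.0438 in wild-type ESC and 0.0337 and 0.0341 in knockout ESC. It came to 0.848 and 0.753 in wild-type NPC and 1.15 and 1.18 in knockout NPC.

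**Figure D3:**
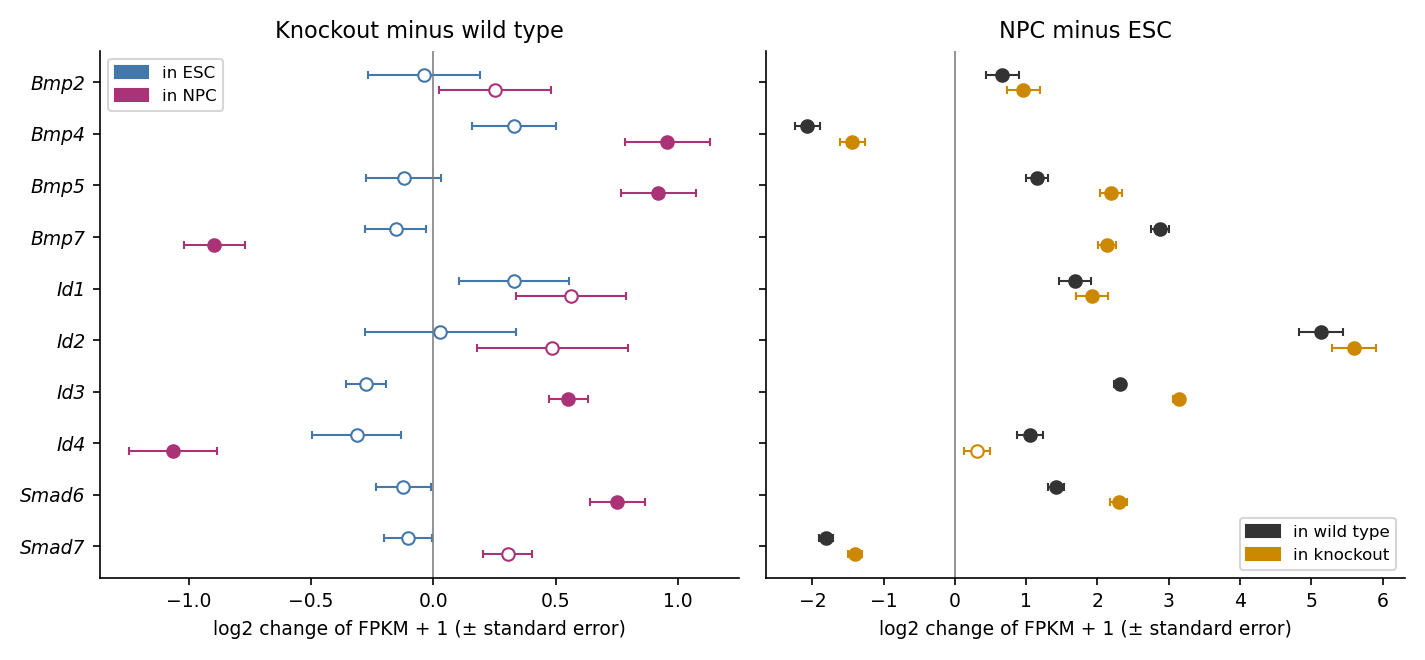
Change of log2(FPKM + 1) for the 10 genes, knockout minus wild type on the left and NPC minus ESC on the right; bars are standard errors, and filled points have an adjusted p under 0.05. Knockout changes in ESC are all open, while in NPC Bmp4, Bmp5, Id3 and Smad6 are filled on the higher side and Bmp7 and Id4 on the lower side.

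Counted by comparison, none of the 10 genes was called between knockout and wild-type ESC by limma, where 0.248% of all genes tested were. Of the 10, 1 (Id3) had an unadjusted p under 0.05, as did 1686 of all 13318 genes tested. Groups did not overlap for 5 of the 10, against 44.2% of all genes. In NPC, 6 of 10 were called, 4 higher (Bmp4, Bmp5, Id3 and Smad6) and 2 lower (Bmp7 and Id4). Among all genes, 27.4% were called in that comparison, 14.7% higher and 12.7% lower. That balance depended on the scaling, with 1962 genes higher and 1686 lower as given, and 1516 higher and 1810 lower after median-ratio scaling. Groups in NPC were apart for 9 of the 10, all but Bmp2, against 63.6% of all genes. The median change over the 10 was 0.52 in NPC, beside 0.05 over all genes tested.

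Between ESC and NPC, 10 of 10 genes were called in wild type, 8 higher and 2 lower, beside 72.6% of all genes (41.6% higher and 31.1% lower). In knockout cells 9 of 10 were called, 7 higher and 2 lower, beside 70.3% of all genes (41.6% higher and 28.8% lower). The share called among the 10 is read against these high backgrounds. Bmp2, Bmp5 and Smad6, counted as higher in both genotypes, passed the filter through NPC libraries only. The filter thus favoured a rise for them, and the medians of the 10 genes include them. Bmp4 and Smad7 were the genes that fell in both genotypes. Groups did not overlap for 10 of 10 genes in either genotype, against 86.2% of all genes in wild type and 85.6% in knockout. The median change was 1.28 in wild type and 2.03 in knockout for the 10 genes, and 0.15 and 0.17 for all genes. The medians of all genes depended on the scaling, at 0.04 and 0.03 after median-ratio scaling, and no call among the 10 genes changed direction with it.

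The difference between the knockout effect in NPC and that in ESC was called for 4 of 10 genes, 3 higher and 1 lower, beside 16.8% of all genes (8.41% higher and 8.39% lower). It was higher for Id3 (0.83 ± 0.11, adjusted p = 0.0041), Smad6 (0.88 ± 0.16, adjusted p = 0.012) and Bmp5 (1.04 ± 0.22, adjusted p = 0.020), and lower for Bmp7 (-0.74 ± 0.18, adjusted p = 0.030). Id3 and Smad6 were called under every alternative run, with adjusted p up to 0.022 and 0.048. The Bmp5 call was lost without wild-type ESC library 1, wild-type NPC library 2, either knockout ESC library or knockout NPC library 2 (adjusted p 0.061 to 0.067). The Bmp7 call was lost without any single library except knockout NPC library 2 (adjusted p 0.055 to 0.10). Both were also lost with a pseudocount of 0.1 (adjusted p = 0.11 for each). Bmp4 (0.63 ± 0.24, adjusted p = 0.13) and Id4 (-0.75 ± 0.25, adjusted p = 0.092) were not called, but Bmp4 was without wild-type NPC library 2 (0.92, adjusted p = 0.012) and Id4 without knockout NPC library 2 (-1.0, adjusted p = 0.035). These comparisons share libraries, so they are not independent of each other.

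The other pathway genes, from lists made by function, did not all follow these genes in knockout NPC. Some of these genes reached an FPKM of 1 in 1 group only, the group where they are high, so they could enter the test only by differing. Their counts and medians are descriptions. For each list the counts in knockout NPC are read beside the 27.4% of all genes called there, 14.7% higher and 12.7% lower. Of 11 other BMP-type ligands only 2 passed the filter, Gdf6 through knockout NPC only. Gdf6, a BMP-type ligand of the dorsal neural tube, skeleton and eye, was higher in knockout NPC, at 2.27 and 2.11 against 0.121 and 0.263 (change 1.42 ± 0.11, adjusted p = 0.00018). Gdf3, a ligand of pluripotent cells, fell with differentiation in wild type from 76.7 ± 1.27 to 0.781 ± 0.217 FPKM (change -5.45 ± 0.14, adjusted p = 2.3e-07), and its change in knockout NPC was not called (0.43 ± 0.14, adjusted p = 0.062).

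Of 9 receptors and co-receptors tested, 8 rose and 1 fell between wild-type ESC and NPC, beside 41.6% higher and 31.1% lower among all genes. Bmpr1b, counted among those that rose, passed the filter through NPC libraries only, so the filter favoured its rise. In knockout NPC 4 of the 9 were lower and 0 higher than in wild-type NPC (median change -0.28). Rgmb, a membrane co-receptor of BMPs, was at 11.6 and 15.2 in wild-type NPC and 2.48 and 3.08 in knockout NPC (change -1.92 ± 0.19, adjusted p = 0.00043). The other 3 changes were small: -0.56 ± 0.16 for the type II receptor gene Acvr2b, -0.48 ± 0.12 for Acvr2a, and -0.46 ± 0.13 for the type I receptor gene Bmpr1b, which was named after its values were seen. The Acvr2a call was lost without either wild-type NPC library or knockout NPC library 2 (adjusted p up to 0.14). The Acvr2b call was lost without any library other than the knockout ESC ones (adjusted p up to 0.21), and the Bmpr1b call without any single library (adjusted p up to 0.16). Bmpr1a, the type I receptor gene most used by BMP4, was at 34.9 ± 5.54 in wild-type and 38.4 ± 0.759 in knockout NPC, and Bmpr2, the BMP type II receptor gene, at 13.4 ± 2.32 and 14.6 ± 0.402. Neither was called (adjusted p = 0.41 and 0.56), and both were named after their values were seen.

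Of the 4 signalling Smads tested, 1 was higher in knockout NPC and 0 lower. That gene, Smad9, the least abundant receptor-activated BMP Smad, passed the filter through knockout NPC only. It was at 0.683 and 0.388 in wild-type and 2.71 and 2.54 in knockout NPC (change 1.24 ± 0.13, adjusted p = 0.00061). Smad1 and Smad5, which carry most of the signal in many cells, rose from ESC to NPC by 1.56 ± 0.13 and 1.81 ± 0.08 in wild type, and their knockout changes in NPC of 0.18 ± 0.13 and -0.09 ± 0.08 were not called (adjusted p = 0.35 and 0.46).

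Secreted antagonists and modulators were split, with 3 of 11 tested higher and 2 lower in knockout NPC (median change -0.03). Chrdl1 passed the filter through knockout NPC only, and Nbl1 and Chrd, which was not called, through wild-type NPC only. Chrdl1, a secreted BMP binder, was at 0.855 and 0.757 in wild-type and 4.38 and 4.72 in knockout NPC (change 1.62 ± 0.11, adjusted p = 9.6e-05). Bambi, a membrane decoy receptor and itself a BMP target, was at 2.33 and 2.63 against 9.41 and 7.36 (change 1.42 ± 0.14, adjusted p = 0.00049). Both were higher in both knockout libraries. Nbl1, a secreted antagonist, was at 3.77 and 5.00 in wild-type and 0.442 and 0.620 in knockout NPC (change -1.81 ± 0.14, adjusted p = 0.00017). Noggin (Nog), the classical BMP antagonist, was lower (change -0.96 ± 0.21, adjusted p = 0.015) and Twsg1, a modulator, higher (0.50 ± 0.10, adjusted p = 0.0096), and both were named after their values were seen. The Nog call was lost without wild-type NPC library 1 or knockout NPC library 2 (adjusted p up to 0.083), and the Twsg1 call without wild-type or knockout NPC library 2 (adjusted p up to 0.057).

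Among the 4 Smad ligase and corepressor genes, 1 was higher and 1 lower in knockout NPC. Smurf2, a ubiquitin ligase that works with the inhibitory Smads, changed by 0.44 ± 0.08 (17.9 ± 0.753 to 24.8 ± 0.564, adjusted p = 0.0072). Skil, a corepressor of Smads, changed by -0.34 ± 0.10 (adjusted p = 0.046), a call lost when any single library was left out (adjusted p 0.051 to 0.20).

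Of 10 other BMP target genes tested, 2 were higher and 3 lower in knockout NPC (median change -0.11). Msx1 and Dlx3, which was not called, passed the filter through wild-type NPC only. Gata2, a factor of blood, endothelium and trophoblast, was at 5.90 and 6.06 in wild-type and 21.5 and 19.3 in knockout NPC (change 1.62 ± 0.17, adjusted p = 0.00066). Msx1 and Msx2, homeobox targets of BMPs in the dorsal neural tube and neural crest, went the other way. Msx1 was at 6.28 and 3.55 against 0.498 and 0.653 (change -1.87 ± 0.21, adjusted p = 0.00086), and Msx2 at 9.58 and 9.12 against 2.03 and 2.68 (-1.63 ± 0.19, adjusted p = 0.00094). Tfap2a, a neural crest and surface ectoderm factor, was also lower (-1.36 ± 0.21, adjusted p = 0.0033), and Junb, an AP-1 factor, higher (1.05 ± 0.23, adjusted p = 0.016), both named after their values were seen. The Junb call was lost without either wild-type NPC library (adjusted p up to 0.086).

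Of 3 E proteins, the partners that Id proteins bind, 2 were lower in knockout NPC. Tcf12 was at 75.4 and 70.6 in wild-type and 43.8 and 45.3 in knockout NPC (change -0.70 ± 0.09, adjusted p = 0.0018). Tcf4 was at 25.3 and 21.6 against 14.7 and 14.1 (change -0.66 ± 0.10, adjusted p = 0.0035). Tcf3 was at 47.4 ± 0.833 and 49.7 ± 1.82, and it was not called. In ESC none of the 8 pathway lists had a gene called by limma. An unadjusted p under 0.05 was seen for 6 of their genes, and for 1686 of all 13318 genes tested.

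**Figure D4:**
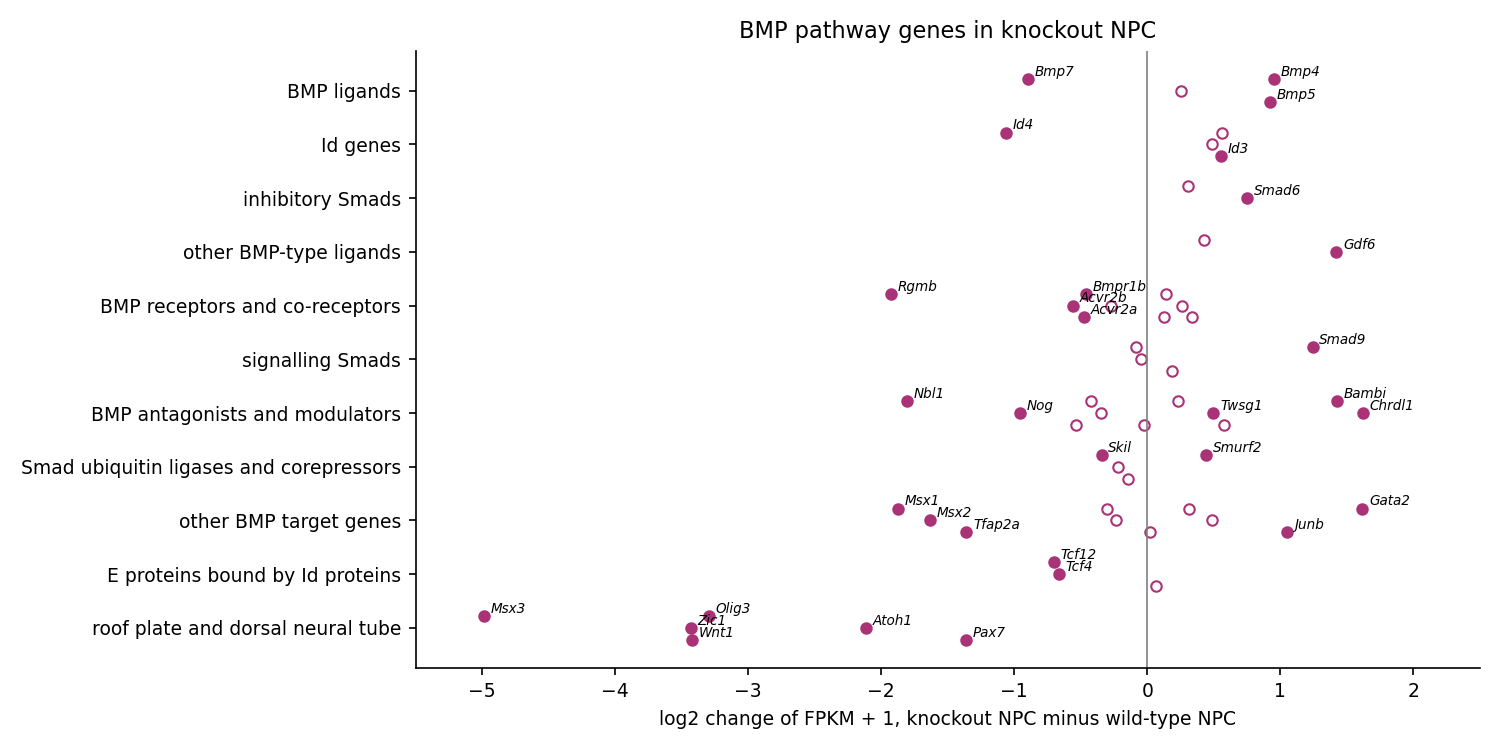
Change of log2(FPKM + 1) between knockout and wild-type NPC for the 10 genes (first 3 lines) and for the tested genes of 8 further lists; each point is a gene, filled and named where its adjusted p was under 0.05. Dorsal neural tube genes lie farthest to the left, down to Msx3 at -4.99, while the filled Id, Smad and ligand points lie on both sides of 0.

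Markers of other cell types moved in the same NPC comparison, in which 14.7% of all genes tested were called higher and 12.7% lower. Roof plate and dorsal neural tube genes, which depend on BMPs in the embryo, were lower for 6 of 6 tested in knockout NPC (median change -3.36). Of these 6, 3 passed the filter through wild-type NPC only, so their direction was set by the filter, and 2 of the 8 listed did not pass. Msx3 fell from 71.7 and 60.2 FPKM to 0.248 and 2.55 (change -4.99 ± 0.42), Zic1 from 26.1 and 19.4 to 1.22 and 1.13 (-3.43 ± 0.15), and Wnt1 from 18.2 and 16.6 to 0.278 and 1.30 (-3.42 ± 0.25). Neural progenitor markers were lower for 7 of 8 and neuron markers for 8 of 8, with summed neuron markers at 467 to 488 in wild-type and 15.2 to 25.6 in knockout NPC. Neural crest markers were lower for 4 of 5 tested and higher for 1, at 64.2 to 77.2 against 19.4 to 24.9.

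Markers of lateral mesoderm were higher in knockout NPC for 6 of 6 tested, beside 14.7% of all genes. They summed to 23.2 to 27.0 FPKM in wild-type and 123 to 144 in knockout NPC, with Mesp1 at 0 in both. Markers of endothelium and blood were higher for 7 of 7 tested, at 90.2 to 119 against 856 to 1053, with Gata1 at 0 in wild-type NPC. Most of that sum was from the globin genes Hba-x (mean 47.4 in wild-type and 478 in knockout NPC), Hbb-bh1 (24.3 and 233) and Hbb-y (26.0 and 218). Cdh5 was at 2.88 and 6.46, Pecam1 at 2.31 and 10.1, and Kdr at 1.26 and 2.92. Markers of extraembryonic endoderm summed to 20.3 to 26.4 against 56.2 to 65.4 (2 higher, 1 lower and 2 not called). Most of the knockout sum was Gata4 (mean 2.66 in wild-type and 26.8 in knockout NPC) and Gata6 (6.71 and 19.3). Dab2 was at 8.84 and 11.2, Sox7 at 2.87 and 1.66 and Sox17 at 1.26 and 0.454, with Afp, Ttr and Cubn under 1. Markers of heart and smooth muscle summed to 26.0 to 31.3 against 35.2 to 46.9 (2 higher, 2 not called). Trophoblast markers summed to 125 to 145 against 190 to 213 (2 higher, 3 not called). Most of that sum was Krt8 (mean 53.2 in wild-type and 90.8 in knockout NPC) and Krt18 (79.7 and 106). The highest of the other trophoblast markers, Cdx2, had means of 0.872 and 1.68. Fibroblast markers, which feeders would also carry, summed to 89.4 to 100.5 against 65.8 to 75.9 (5 lower, 2 not called), with S100a4 at 0 in both knockout libraries. In ESC these fibroblast markers summed to at most 1.43. Of the genes counted, Tal1 (blood) and Tnnt2 (heart) passed the filter through knockout NPC only, and Hes5 (neural progenitors), Sox17 (endoderm), Lum and Dcn (fibroblasts) through wild-type NPC only. The part of these cell types in the levels of Bmp4, Bmp5, Bmp7, Id3, Id4 and Smad6 was not tested.

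Across the 8 libraries, the genes most like Id1, Bmp4 and Bmp7 were sought among 9282 genes, by the Pearson correlation of log2(FPKM + 1), as a description. All 8 libraries share the split into ESC and NPC, so high values are common, and 760 genes reached at least 0.95 with Id1, 411 with Bmp4 and 1117 with Bmp7. Closest to Id1 were Rdh14 (0.993), Neu1 (0.991), Zfp869 (0.991), Tmem87b (0.991) and Crk (0.990). Closest to Bmp4 were Ints9 (0.996), Kat7 (0.996), Scpep1 (0.994), Zwilch (0.994) and Cdca5 (0.993). Closest to Bmp7 were Hoxc8 (0.999), Hoxb6, Hoxb5os, Ralgps2 and Irs1 (0.998 each), and Hoxb6, for one, went from a mean of 0.0955 in wild-type ESC to 74.1 in wild-type and 24.1 in knockout NPC.

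In the tables the genes lie, on mm9, at chr2:133377894-133388632 (Bmp2), chr14:47003195-47010274 (Bmp4), chr9:75623171-75746824 (Bmp5), chr2:172693512-172765822 (Bmp7), chr2:152561986-152563146 (Id1), chr12:25778663-25780957 (Id2), chr4:135699736-135701307 (Id3), chr13:48356795-48359405 (Id4), chr9:63800882-63869866 (Smad6) and chr18:75527018-75555588 (Smad7). No 2 of the 10 overlap, and Id4 is overlapped by A330033J07Rik, which reached at most 0.126 FPKM in any library. The implied fragments behind a value ran from 230 to 2554 for Id3, 11 to 1765 for Id2, 32 to 571 for Bmp7 and 84 to 505 for Bmp4, but only from 0 to 113 for Bmp5 and 18 to 77 for Id4. The 95% interval of Id4 in knockout NPC ran from 0.765 to 1.95 in library 1 and from 1.59 to 3.06 in library 2.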

How the data were processed

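Poly(A) RNA of 8 libraries, 2 in each of 4 groups, was prepared with a directional kit from 100 ng of total RNA. Per the submitters' processing notes, the authors used TopHat2 2.1.1, Cufflinks 2.2.1 and mm9; the annotation and the strand setting are not given in the sources used here. The deposited values are FPKM per gene with a 95% interval, without counts. Entries of a symbol were summed, and 12 symbols with a failed estimate were left out of 24318. Fragment numbers were implied from the deposited intervals, and they cover counting error only.

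The 13318 genes that reached FPKM 1 in 2 or more libraries were tested on log2(FPKM + 1) by limma 3.58.1 (R 4.3.3). The fit held the means of the 4 groups, left 4 residual degrees of freedom and used a variance trend, with 5 two-sided contrasts and Benjamini-Hochberg adjustment over all genes in each. As alternatives, each library was left out in turn, and the fit was rerun with a replicate block, on only the 2 groups compared, without the variance trend, after quantile normalization or median-ratio scaling, with the highest entry of a symbol, with pseudocount 0.1, unfiltered, or with FPKM 5 as the minimum.

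The 10 genes, the lists and the tests were chosen with earlier results of these data known. The text names all 10 genes, and per list and comparison up to 3 called genes with the largest change or the 1 with the smallest p, from which it describes those of the NPC comparisons. Genes outside the rule are named as chosen after their values were seen. Some others are named only for how they passed the filter or for their part in a marker sum. The genes most like Id1, Bmp4 and Bmp7 were the 5 with the highest correlation among genes with a mean of at least 5 FPKM in a group, without predicted genes and microRNA or small nucleolar RNA genes. No set test was run. Promoters came from RefSeq (GRCm38.p6).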

Additional observations from a re-analysis of the deposited data

Results flagged for a closer look

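The effect of the knockout differed between NPC and ESC for 4 of the 10 genes by limma's test of the difference itself, beside 16.8% of all genes tested. The calls of Id3 and Smad6 held under all alternatives run, while those of Bmp5 and Bmp7 were lost with a pseudocount of 0.1 and when any of several single libraries was left out. On the log2(FPKM + 1) scale the knockout effect in NPC minus that in ESC was 1.04 for Bmp5, 0.83 for Id3, 0.88 for Smad6 and -0.74 for Bmp7. For Id3 both knockout libraries lay below both wild-type libraries in ESC and above them in NPC, and the same was true of Smad6. Neither ESC change was called by limma (adjusted p = 0.26 for Id3 and 0.70 for Smad6), and 44.2% of all genes were also apart in ESC. Smad6 had only 17 to 21 implied fragments in the ESC libraries. Bmp5 was at or near 0 in all ESC libraries, where no fold can be given. Bmp7 was lower in knockout at both stages, by 0.15 ± 0.12 in ESC, which was not called, and by 0.90 ± 0.12 in NPC. Markers of mesoderm, endothelium and blood were higher and neural markers lower in the same knockout NPC libraries, and their part in these differences was not tested.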

How the results depend on the processing

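Across the alternatives, 783 of 810 single results for the 10 genes stayed on the same side of the threshold. Of the rest, 19 lost a call and 8 gained one, and 0 calls reversed direction. Among results without a call the sign could change, as for Id2 in ESC (from -0.40 to 0.46 across the alternatives). The count of genes called for the difference between the knockout effects was 4, but 2 with a pseudocount of 0.1 (Id3 and Smad6), and 2 to 4 when 1 library was left out. It was 2 without wild-type ESC library 1, without knockout ESC library 1 and without knockout ESC library 2, and the cause was not tested. Leaving out 1 library gave 0 genes in ESC, 6 to 7 in NPC, 9 to 10 for wild-type differentiation and 8 to 10 for knockout differentiation. In the labels, libraries of the same number are linked by that number only. Their deviations correlated at -0.05 to 0.18, and a replicate block gave 0, 6, 10, 9 and 4 genes called, the same counts as without it. Among the pathway genes named, the block ended the NPC calls of Acvr2b, Bmpr1b and Skil. With an FPKM minimum of 5, 7 of the 10 genes could be tested, and 4 of them were called in NPC. Smad6, among these 4, reached that minimum in knockout NPC only (6.75 and 6.66), so this filter favoured its call. When wild-type or knockout NPC library 2 was left out, Bmp2 fell below the filter. Low depth limits Bmp2, Bmp5, Id4 and, in ESC, Smad6 and Id2, and 2 libraries per group limit all tests.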
